A study of Mus musculus with 3 samples.

Results

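The immunoglobulin light chain genes were taken as all rows of the count tables whose symbol begins with Igkv, Iglv or Iglc or is Igkc, which gave 168 of 32285 genes. They comprise 160 kappa V genes (Igkv), 3 lambda V genes (Iglv), 4 lambda constant genes (Iglc1, Iglc2, Iglc3 and Iglc4) and the kappa constant gene Igkc. The choice used symbols only, not values. The libraries came from mouse mesenteric lymph node, which drains the gut, after 4 weeks of oral feeding with LysoPS-OVA (1 µg of the egg protein ovalbumin carried by lyso-phosphatidylserine nanoparticles), with free OVA (1 µg of ovalbumin alone) or with 5 mM citrate buffer. Each feeding is 1 droplet library of 3' transcript ends, made from 6 pooled animals whose strain, sex and age were not given in the labels used here. The tissue label is mesenteric lymph node, while the cell type label reads intestinal cells. With 1 library per feeding, differences between feedings have no test, and their 95% intervals cover counting error only.

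Each B cell carries 1 antibody light chain, built by joining a V segment to a J segment beside a constant gene, at the kappa locus or, where kappa joining fails, at a lambda locus. The V segment forms most of the antigen-binding part of the chain and the constant gene forms its tail. In mouse, kappa chains predominate and few lambda V segments exist. Plasma cells, the antibody-secreting descendants of B cells, hold light chain transcripts at far higher levels than resting B cells.

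The genes were read in 2 classes of barcodes. Plasma barcodes had at least 5 UMIs of Jchain, 2 of Xbp1 and 2 of Mzb1, and 27, 41 and 41 were kept in the LysoPS-OVA, free OVA and citrate buffer libraries. B barcodes had UMIs of Cd79a and Ms4a1 and under 5 of Jchain, and 6802, 5586 and 7402 were kept. T barcodes (Cd3e and Trbc2 seen, Cd79a and Ms4a1 unseen), which should lack light chains, numbered 3844, 2318 and 4209 and were read for free RNA. As they were chosen to lack Cd79a and Ms4a1 UMIs, their level of free B cell RNA may be an underestimate. Median UMIs per barcode were 12832, 15968 and 11036 in plasma barcodes and 4768.5, 5619.5 and 4160 in B barcodes. The libraries shared 166 to 194 barcode sequences per pair. Ighd, which marks resting B cells, was seen in 94.0%, 87.9% and 84.9% of B barcodes. The plasma rule did not gather mature plasma cells alone. Sdc1, a surface marker of plasma cells, was seen in 3 of 27, 12 of 41 and 5 of 41 plasma barcodes, and the proliferation gene Mki67 in 19, 25 and 33. Genes of germinal centre B cells were also high: Rgs13 was at 638, 276 and 263 CPM (UMIs scaled to the class total) in plasma barcodes and at 15.4, 24.03 and 27.8 CPM in B barcodes, and Mef2b was seen in 18, 17 and 25 plasma barcodes. Their part in the differences between plasma and B barcodes was not tested. The name plasma barcodes therefore refers to the rule. Among B barcodes 13.5%, 8.09% and 21.9% held at least 2 Cd3 UMIs, so some barcodes held a T cell's RNA as well.

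The sequences show which light chain transcripts the counts can tell apart. The constant genes are shown by their last 90 coding bases in GRCm38 (mm10) and GENCODE M21, 5′ to 3′, with capitals where a lambda gene differs from Iglc2:
Igkc: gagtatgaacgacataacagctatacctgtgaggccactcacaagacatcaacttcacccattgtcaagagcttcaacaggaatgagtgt
Iglc1: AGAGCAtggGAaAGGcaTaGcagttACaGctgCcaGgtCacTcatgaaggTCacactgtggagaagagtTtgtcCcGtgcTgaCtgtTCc
Iglc2: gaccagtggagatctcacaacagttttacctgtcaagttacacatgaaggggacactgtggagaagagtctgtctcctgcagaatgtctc
Iglc3: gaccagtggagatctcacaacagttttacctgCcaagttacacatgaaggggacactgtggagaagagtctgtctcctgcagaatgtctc
Iglc4: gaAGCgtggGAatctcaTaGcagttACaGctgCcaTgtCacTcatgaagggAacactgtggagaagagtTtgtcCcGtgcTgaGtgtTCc
Iglc3 differs from Iglc2 at 1 of these 90 bases and the 2 coding sequences are 95.9% identical, so single bases assign their reads. Iglc1 and Iglc2 are 74.5% identical. No 90-base stretch, the length of the sequenced transcript read, is shared between any pair of Iglc transcripts.

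The V genes on which the results turn are shown by their last 90 coding bases. Capitals run from the codon of the conserved cysteine just before the third complementarity-determining region:
Igkv6-20: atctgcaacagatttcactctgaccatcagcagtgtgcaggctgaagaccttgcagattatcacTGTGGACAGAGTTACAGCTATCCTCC
Igkv1-117: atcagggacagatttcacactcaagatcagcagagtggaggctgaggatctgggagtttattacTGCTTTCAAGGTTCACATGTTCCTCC
Igkv1-110: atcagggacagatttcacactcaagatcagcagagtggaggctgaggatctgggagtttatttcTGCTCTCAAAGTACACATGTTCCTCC
Iglv3: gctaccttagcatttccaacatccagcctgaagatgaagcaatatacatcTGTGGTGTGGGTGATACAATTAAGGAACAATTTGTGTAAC
Iglv1: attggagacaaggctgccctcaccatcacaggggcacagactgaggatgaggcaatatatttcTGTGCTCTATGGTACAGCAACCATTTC
Iglv2: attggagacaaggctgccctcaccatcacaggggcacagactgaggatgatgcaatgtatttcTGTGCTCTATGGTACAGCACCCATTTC
Igkv10-96: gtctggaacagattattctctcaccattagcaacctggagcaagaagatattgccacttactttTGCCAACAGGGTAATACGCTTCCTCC
Igkv5-45: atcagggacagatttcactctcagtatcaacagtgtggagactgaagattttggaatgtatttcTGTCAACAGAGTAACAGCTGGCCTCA
Igkv6-15: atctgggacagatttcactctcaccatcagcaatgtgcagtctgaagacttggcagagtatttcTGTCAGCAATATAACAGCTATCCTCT
Igkv1-117 and Igkv1-110 are 97.2% identical over their coding sequence, and Iglv1 and Iglv2 96.9%. Igkv6-20 is 98.6% identical to Igkv6-29, and 42.7% of its 90-base stretches occur in no other light chain transcript. Reads shared by near-identical copies may be lost or misplaced, so counts of these genes are uncertain. Igkv6-29 itself had 4 UMIs over all B barcodes, against 915 for Igkv6-20. Of the 163 V genes, 103 share no 90-base stretch with another light chain transcript.

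Igkc had the most UMIs of the light chain genes in every class of barcode; each UMI marks 1 transcript end, so levels do not scale with transcript length. Its level, in CPM, was 41865, 90766 and 36988 in plasma barcodes of the LysoPS-OVA, free OVA and citrate buffer libraries. In B barcodes it was 5070, 4505 and 3867, and in T barcodes 194, 169 and 305. The plasma range lay wholly above the B range. In plasma barcodes it was unevenly spread: the 3 highest barcodes held 75.4%, 44.8% and 47.9% of the Igkc UMIs, with maxima of 6545, 14498 and 3623 UMIs.

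**Figure D1:**
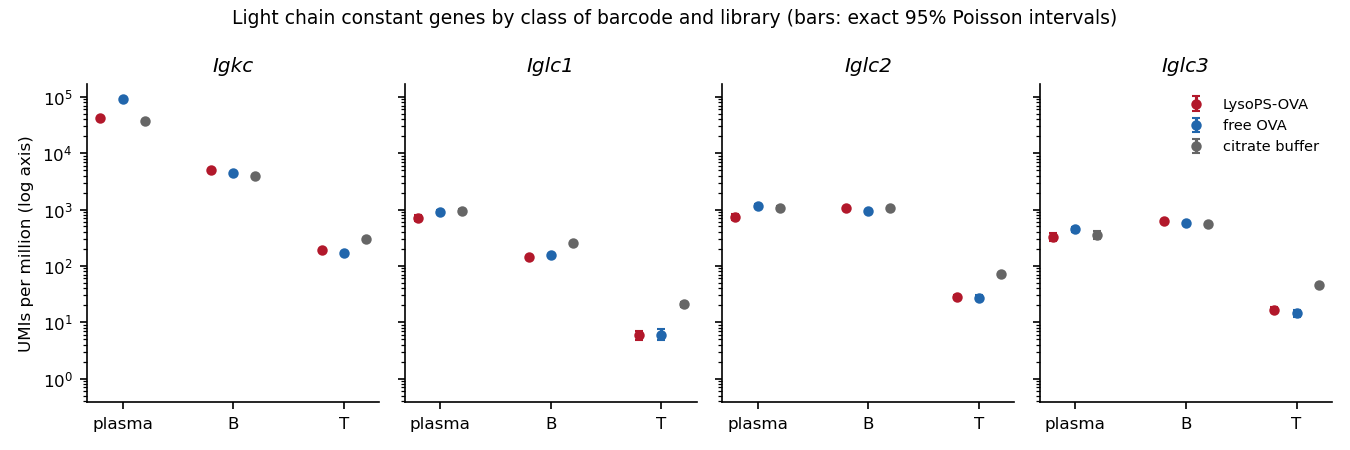
Levels of Igkc, Iglc1, Iglc2 and Iglc3 in CPM (log axis) in plasma, B and T barcodes of each library, with exact 95% Poisson intervals. Igkc and Iglc1 were higher in plasma than in B barcodes of every library, Iglc3 was lower in every library, and Iglc2 was lower in LysoPS-OVA only.

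The lambda constant genes behaved unlike one another between the classes. Iglc1 was at 705, 909 and 942 CPM in plasma barcodes and at 144, 155 and 260 in B barcodes. Iglc2 was at 740, 1168 and 1067 in plasma barcodes and at 1065, 939 and 1056 in B barcodes. Iglc3 was at 322, 445 and 355 in plasma barcodes and at 614, 566 and 547 in B barcodes. The plasma and B ranges were apart for Iglc1 and Iglc3, in opposite directions, and overlapped for Iglc2. Iglc4 had 1 UMI in all plasma barcodes and 55, 41 and 69 UMIs in B barcodes of the 3 libraries. Iglc1 made up 39.9%, 36.0% and 39.8% of lambda constant UMIs in plasma barcodes, against 7.91%, 9.34% and 13.9% in B barcodes.

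Kappa outweighed lambda in both classes, and more so in plasma barcodes. The lambda share of constant UMIs was 4.05% (95% exact interval 3.77 to 4.34), 2.71% (2.58 to 2.83) and 6.01% (5.68 to 6.35) in plasma barcodes of the LysoPS-OVA, free OVA and citrate buffer libraries. In B barcodes it was 26.5% (26.3 to 26.6), 26.9% (26.7 to 27.1) and 32.5% (32.3 to 32.7). Citrate buffer had the highest lambda share of summed UMIs in both classes. In plasma barcodes that order rests on the barcodes highest in Igkc: the median lambda share per plasma barcode was 14.2%, 4.97% and 11.4%, and plasma barcodes under 1000 Igkc UMIs had 15.2%, 8.09% and 13.7%, with LysoPS-OVA highest by both. The share of summed UMIs in T barcodes was 20.6%, 22.01% and 31.1%, so the order of citrate buffer above the others also held in barcodes that should make no light chain.

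A B barcode seldom showed a single class of light chain. Igkc and at least 1 Iglc gene were both seen in 94.6%, 91.4% and 89.1% of B barcodes, against 14.1%, 13.8% and 29.2% of T barcodes, whose median depths were 5286, 5988 and 4258 UMIs. The medians per B barcode were 26, 25 and 16 UMIs of Igkc and 9, 8 and 8 of Iglc. The medians per T barcode were 1 UMI of Igkc and 0 of Iglc in each library. Median Igkc was higher at moderate Iglc: B barcodes with 21 to 40 Iglc UMIs had median Igkc of 38, 39 and 31 UMIs, against 22, 17 and 12 in those with 3 to 5. Over 40 Iglc UMIs, in 58, 50 and 43 barcodes, the medians were 37.5, 34.5 and 33, but 17.2%, 20% and 13.95% held 3 or fewer Igkc UMIs, against 0.189%, 0.360% and 1.85% of those with 11 to 20. The part of doublets and free RNA in this joint presence was not tested.

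**Figure D2:**
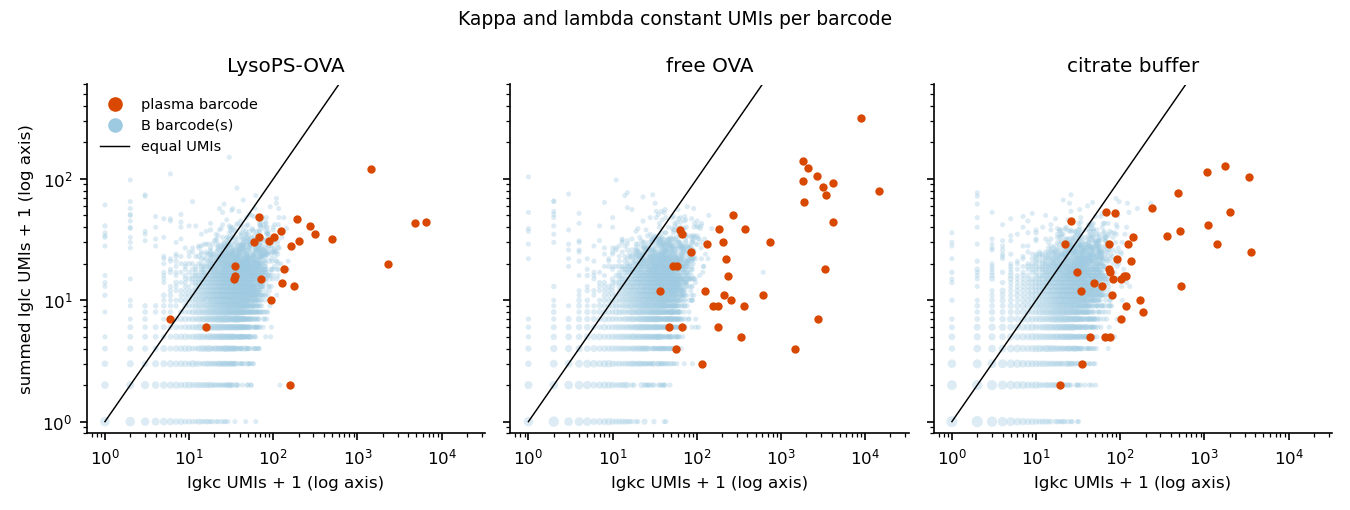
Igkc UMIs plus 1 (horizontal, log axis) against summed Iglc UMIs plus 1 (vertical, log axis) per barcode in each library, with plasma barcodes over B barcodes and a line of equal UMIs. Most B barcodes lie below the line with several UMIs of both classes, and plasma barcodes extend to 14498 Igkc UMIs while their Iglc UMIs stay at or under 317.

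A barcode was called kappa or lambda where it had at least 5 constant UMIs and 80% or more of one class. By that rule 64.8%, 65.5% and 76.4% of B barcodes with enough UMIs were mixed. Of those called, 66 of 2256 were lambda in LysoPS-OVA, which is 2.93% (2.27 to 3.71), 68 of 1727 in free OVA, which is 3.94% (3.07 to 4.97), and 125 of 1495 in citrate buffer, which is 8.36% (7.01 to 9.88). The citrate buffer interval lay above those of both OVA libraries, which overlapped each other. T barcodes called by the same rule were lambda in 3 of 62, 2 of 46 and 24 of 133, which is 4.84% (1.01 to 13.5), 4.35% (0.531 to 14.8) and 18.0% (11.9 to 25.6). These T shares rest on few barcodes, and in LysoPS-OVA and free OVA their intervals hold the B shares. By summed UMIs the lambda share was higher in B than in T barcodes, with intervals apart in all 3 libraries. Where the larger class decided, lambda led in 5.93%, 8.22% and 15.0% of B barcodes. With 95% of one class asked for, the order changed, with 16.4% in LysoPS-OVA, 11.7% in free OVA and 15.6% in citrate buffer.

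The lambda-called B barcodes were led mostly by Iglc2. It led in 45 of 66, 38 of 68 and 75 of 125, Iglc1 led in 13, 12 and 25, and Iglc3 in 8, 18 and 25. A lambda V gene was seen in 7, 6 and 12 of them. The difference between feedings was widest for Iglc1 in B barcodes, with a ratio of 0.556 for LysoPS-OVA over citrate buffer (0.537 to 0.574) and of 0.597 for free OVA over citrate buffer (0.577 to 0.618). In T barcodes Iglc1 was at 5.92, 6.03 and 20.95 CPM, with ratios to citrate buffer of 0.283 in LysoPS-OVA and 0.288 in free OVA. The T difference was not particular to Iglc1, as Iglc2 and Iglc3 in T barcodes had ratios of 0.391 and 0.366 for LysoPS-OVA over citrate buffer, against 1.01 and 1.12 in B barcodes. Within B barcodes of 10% or more ribosomal UMIs, Iglc1 was at 149, 160 and 273 CPM. None of the constant genes in B barcodes passed a 2-fold difference between feedings.

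No plasma barcode was called lambda. In LysoPS-OVA 16 were kappa and 11 mixed, in free OVA 35 and 6, and in citrate buffer 33 and 8, so 0 of 16, 0 of 35 and 0 of 33 allow lambda shares of up to 18.8%, 8.57% and 9.09%. Lambda UMIs exceeded kappa UMIs in 1, 0 and 2 plasma barcodes. By leading heavy chain, the lambda share of constant UMIs was 7.87%, 1.87% and 4.85% in Igha-led plasma barcodes, 6.08%, 5.17% and 7.61% in Ighm-led and 2.81%, 3.19% and 3.84% in Ighg-led ones. Plasma barcodes with under 5 Ms4a1 UMIs had 2.19%, 2.25% and 3.54% lambda, and those with 5 or more, numbering 13, 15 and 23, had 17.7%, 11.9% and 12.7%. The higher share went with the B cell gene in all 3 libraries.

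V genes are seen rarely in these 3' libraries. V gene UMIs came to 1.201%, 0.793% and 1.08% of constant UMIs in plasma barcodes and to 1.16%, 1.24% and 1.17% in B barcodes. A V gene was seen in 16 of 27, 34 of 41 and 26 of 41 plasma barcodes, in 28.6%, 28.7% and 23.3% of B barcodes, and in 1.40%, 1.51% and 1.71% of T barcodes. Of the 163 V genes, 56 were seen in plasma barcodes, 129 in B barcodes and 33 in neither. A barcode was given to a V gene where that gene had at least 2 UMIs and 60% or more of its V UMIs. This assigned 8, 18 and 9 plasma barcodes and 409, 319 and 262 B barcodes.

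**Figure D3:**
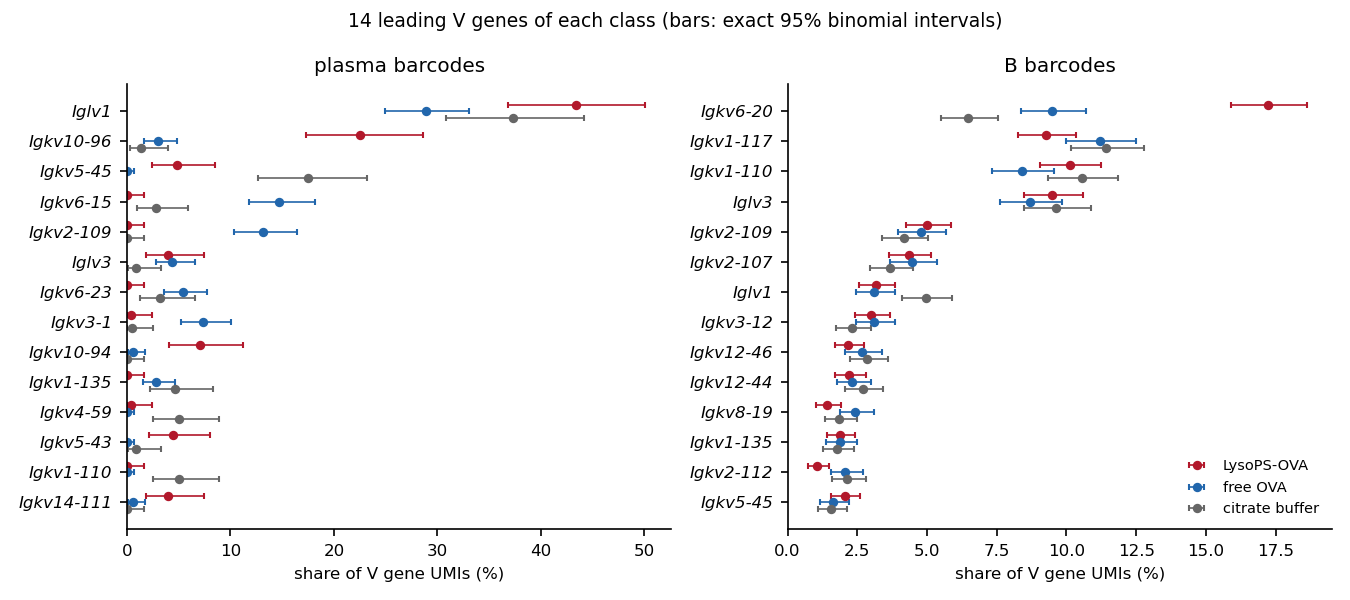
Share of V gene UMIs (%) taken by the 14 leading V genes of plasma and of B barcodes, by library, with exact 95% binomial intervals. In B barcodes Igkv6-20 stands at 17.2%, 9.47% and 6.47% in LysoPS-OVA, free OVA and citrate buffer, and in plasma barcodes Iglv1 leads in all 3 libraries.

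In B barcodes 3 kappa V genes led. Igkv6-20, Igkv1-117 and Igkv1-110 together took 62.6%, 51.1% and 52.3% of the barcodes given to a V gene. Igkv1-117 was given 65, 68 and 60 barcodes, which is 15.9%, 21.3% and 22.9%. Igkv1-110 was given 55, 40 and 41, which is 13.4%, 12.5% and 15.6%. Igkv2-109 and Igkv2-112 followed, with means of 4.74% and 3.70% over the libraries. Iglv3, a lambda V gene, took 9.49%, 8.68% and 9.62% of V UMIs but only 2.69%, 1.88% and 3.82% of assigned barcodes, since 260 of 272, 202 of 210 and 207 of 217 barcodes with it held 1 UMI. Those barcodes had median Igkc of 28.5, 32.5 and 21 UMIs, no lower than the B barcode medians of 26, 25 and 16. Iglv1 had 96, 78 and 118 UMIs and Iglv2 12, 8 and 5. Igkv2-107, annotated as a pseudogene and named here after its values were seen, had 132, 112 and 87 UMIs in B barcodes, against 0, 1 and 0 in plasma barcodes.

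Of the 3 leading V genes, Igkv6-20 differed most between feedings in B barcodes. It lies at chr6:70335841-70336507 (GRCm38), 391 kb before Igkc on the opposite strand. It was given 136 of 409 barcodes in LysoPS-OVA, which is 33.3% (28.7 to 38.0), 55 of 319 in free OVA, which is 17.2% (13.3 to 21.8), and 36 of 262 in citrate buffer, which is 13.7% (9.81 to 18.5). LysoPS-OVA stood above both others and the other 2 overlapped. The ratio of shares was 2.42 for LysoPS-OVA over citrate buffer (1.67 to 3.60), 1.93 for LysoPS-OVA over free OVA (1.40 to 2.69) and 1.25 for free OVA over citrate buffer (0.810 to 1.97). Summed UMIs gave 523, 238 and 154, or 17.2%, 9.47% and 6.47% of V UMIs. Barcodes with an Igkv6-20 UMI numbered 221, 125 and 100, or 3.25%, 2.24% and 1.35% of B barcodes, and those with at least 4 UMIs numbered 41, 12 and 4. After each barcode was thinned to 1500 UMIs the shares of barcodes were 1.43%, 0.843% and 0.568%.

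The other genes of the Igkv6-20 barcodes were read next. Ighd was seen in 98.2%, 99.2% and 93.0% of them, and Fcer2a, the low-affinity IgE receptor of follicular B cells, in 85.5%, 84.8% and 75.0%, against 70.7%, 67.3% and 61.6% of all B barcodes. Their median Igkc was 44, 40 and 33.5 UMIs and their median depth was 5598, 6309 and 5027.5 UMIs, above the medians of all B barcodes in each library. The same held for Igkv1-117 and Igkv1-110, whose barcodes had Ighd in 96.3% to 100% and median Igkc of 27 to 41 UMIs. In B barcodes of 10% or more ribosomal UMIs the share of V UMIs was 17.6%, 9.19% and 6.61%. In the 563, 458 and 941 B barcodes under 10% it was 8.40% (4.27 to 14.5), 16.5% (9.73 to 25.4) and 4.49% (1.82 to 9.03), where LysoPS-OVA was not the highest and its interval overlapped both others. Whether the animals of a pool differed in Igkv6-20 use cannot be told apart from feeding.

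Only 3 V genes had the 20 assigned B barcodes asked for in a comparison of feedings. Of these, 1 of 3 (33.3%) was past 2-fold in LysoPS-OVA against citrate buffer, which was Igkv6-20, and 0 of 3 in the other 2 comparisons. Igkv1-117 had a ratio of 0.694 (0.481 to 1.003) and Igkv1-110 of 0.859 (0.563 to 1.32) in LysoPS-OVA over citrate buffer. By V UMIs, 5 of 33 V genes (15.2%) were past 2-fold in LysoPS-OVA against citrate buffer. Those higher (6.06%) were Igkv6-20 and, named like the others here after its values were seen, Igkv18-36, with 31 UMIs in LysoPS-OVA and 12 in citrate buffer. Those lower (9.09%) were Igkv4-51, Igkv6-15 and Igkv2-112, with 3, 16 and 32 UMIs in LysoPS-OVA and 25, 30 and 51 in citrate buffer. For free OVA against citrate buffer it was 1 of 29 (3.45%), Igkv8-24 with 33 and 13 UMIs. For LysoPS-OVA against free OVA it was 2 of 32 (6.25%), Igkv3-10 higher (3.12%) with 25 and 6 UMIs and Igkv6-15 lower (3.12%) with 16 and 30. Of 3520, 3497 and 3395 genes of B barcodes, 0.682%, 1.86% and 0.353% were past 2-fold in these comparisons, on levels rather than shares. Those genes were filtered at 50 CPM and 30 UMIs, while V genes needed only 20 UMIs. Igkv6-20 itself was at 13.8, 7.22 and 4.35 CPM, so the percentages are not of genes of like level.

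Usage was more concentrated in the LysoPS-OVA library. The effective number of V genes, the inverse of the chance that a pair of assigned barcodes shares its V gene, was 6.31 in LysoPS-OVA, 10.3 in free OVA and 9.45 in citrate buffer B barcodes. LysoPS-OVA was lowest under all 7 alternatives tried, at 14.8, 20.96 and 20.4 by summed V UMIs. Igkv6-20 alone took 33.3%, 17.2% and 13.7% of assigned B barcodes, and its share enters this measure. The effective number was not computed without Igkv6-20, so it is not a result apart from that gene's share. The counts of assigned plasma barcodes were too few for this measure to be read.

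Along the kappa locus, most Igkv UMIs of B barcodes came from both ends. In B barcodes, the 57 Igkv genes between 1000 and 2000 kb before Igkc took 5.61%, 6.93% and 10.5% of Igkv UMIs, with 26, 30 and 38 of them seen. The 53 beyond 2000 kb took 48.5%, 50.4% and 53.1%, and the 50 within 1000 kb took 45.9%, 42.7% and 36.4%. Genes with near-identical copies lie in the middle stretch and at both ends. The share of 90-base stretches found in no other light chain transcript was 71.3% for Igkv4-59, 78.1% for Igkv1-117 and 64.9% for Igkv5-45. How lost or misplaced reads weigh on these shares was not tested. Genes on the same strand as Igkc, 75 of the 160, took 54.6%, 57.3% and 59.5%. In plasma barcodes the stretch from 1000 to 2000 kb took 0.847%, 5.37% and 21.1%, and the same-strand share was 10.2%, 50.4% and 25.6%, on 118, 335 and 133 UMIs that few barcodes supplied. Annotated pseudogenes took 7.09%, 7.61% and 6.85% of Igkv UMIs in B barcodes, and 0%, 2.09% and 0% in plasma barcodes. By family, Igkv1 took 26.8%, 26.8% and 31.4% and Igkv6 23.3%, 15.5% and 12.4% in B barcodes.

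**Figure D4:**
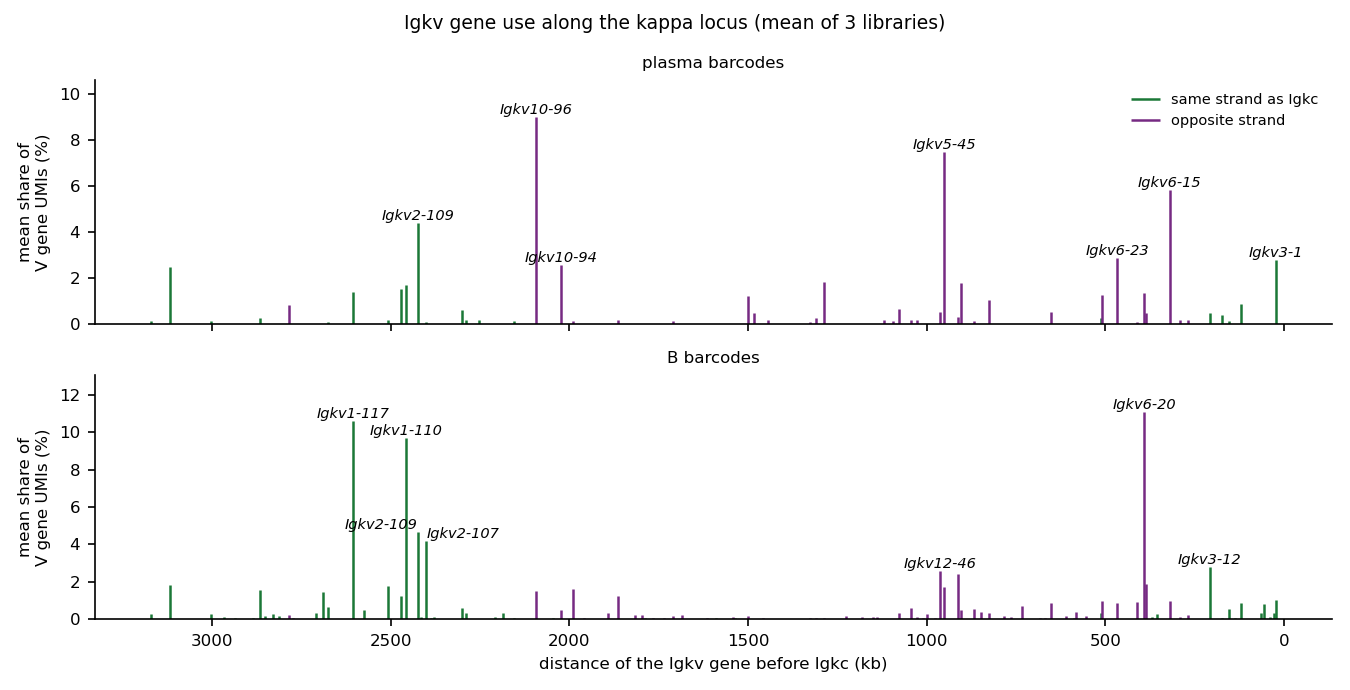
Mean share of V gene UMIs over the 3 libraries (%) of each Igkv gene against its distance before Igkc (kb), in plasma barcodes (upper) and B barcodes (lower), coloured by strand. In B barcodes the highest lines are Igkv6-20 at 391 kb and Igkv1-117 and Igkv1-110 at 2605 and 2456 kb, and the stretch from 1000 to 2000 kb is low.

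In plasma barcodes the leading V gene was the lambda gene Iglv1. It took 98, 145 and 81 UMIs, or 43.4% (36.8 to 50.1), 28.9% (24.95 to 33.1) and 37.3% (30.9 to 44.1) of V UMIs. In B barcodes it took 3.16%, 3.11% and 4.96%. Iglv1 was seen in 3 of 27, 17 of 41 and 10 of 41 plasma barcodes. None of these held more Iglc than Igkc UMIs, and their median Igkc was 4778, 2123 and 1245.5 UMIs. Plasma barcodes with 1000 or more Igkc UMIs, 4, 14 and 7 in number, supplied 93, 138 and 66 of the Iglv1 UMIs, and 1 barcode alone supplied 79 of the 98 in LysoPS-OVA. The barcodes with 1000 or more Igkc UMIs had lambda at 1.46%, 2.15% and 3.29% of their constant UMIs. Its nearest relative Iglv2 had 1, 0 and 1 UMIs in plasma barcodes.

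The highest single plasma barcodes show how kappa and Iglv1 UMIs stood together. The highest of LysoPS-OVA had 6545 Igkc and 43 Iglc UMIs, with 48 UMIs of Igkv10-96 and 14 of Iglv1. The next had 4778 Igkc and 42 Iglc UMIs, with 79 of Iglv1 and 15 of Igkv10-94, so its Iglv1 UMIs exceeded all its Iglc UMIs. The highest of free OVA had 14498 Igkc and 78 Iglc UMIs, with 74 of Igkv6-15 and 17 of Iglv1. The highest of citrate buffer had 3623 Igkc and 24 Iglc UMIs, with 22 of Iglv1 and 7 of Igkv4-59. Over the 3 highest barcodes of each library, a kappa V gene and Iglv1 were the first 2 V genes in 6 of 9. These barcodes were picked by Igkc and described after their values were seen.

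The other V genes of plasma barcodes came from few barcodes. Igkv10-96 had 51, 15 and 3 UMIs in 2, 2 and 2 barcodes. Igkv5-45 had 11, 0 and 38 UMIs in 4, 0 and 5 barcodes. Igkv6-15 had 0, 74 and 6 UMIs in 0, 1 and 2 barcodes. Igkv2-109 had 0, 66 and 0 UMIs in 0, 3 and 0 barcodes. Each of these had most of its UMIs in 1 library. No V gene reached the 10 assigned plasma barcodes asked for, so none was compared between feedings by barcodes. By V UMIs, 7 of 8, 10 of 13 and 11 of 13 V genes (87.5%, 76.9% and 84.6%) were past 2-fold in LysoPS-OVA against citrate buffer, free OVA against citrate buffer and LysoPS-OVA against free OVA. Those higher were 37.5%, 53.8% and 30.8% and those lower 50%, 23.1% and 53.8%. Of 3118, 3362 and 3044 genes of plasma barcodes filtered at 50 CPM and 30 UMIs, 5.84%, 5.83% and 5.39% were past 2-fold on levels. V genes needed only 10 UMIs, so these percentages are not of genes of like level. Iglv1 was within 2-fold in all 3, at ratios of 1.16 (0.857 to 1.58), 0.774 (0.586 to 1.03) and 1.501 (1.15 to 1.95).

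Plasma barcodes were then tested against B barcodes over the 3 libraries with edgeR's quasi-likelihood test on summed UMIs, with library as a term and adjusted p under 0.05. The barcode rule used Jchain, Xbp1, Mzb1, Cd79a and Ms4a1, which were left out of the counts. Of 13462 genes tested, 14.9% were higher and 17.2% lower in plasma barcodes. Of the 168 light chain genes, 31 passed the filter on low counts, 13 were higher and 1 lower. Their median log2 ratio was 0.69, against -0.22 over all genes tested. Without the filter the order was reversed, with a median of -1.46 over 135 light chain genes and of -1.01 over all genes. The higher median therefore holds for the filtered genes only. The filter passed 26 of 163 V genes, of which 11 were higher. It counted plasma and B sums alike, and 1 UMI in a plasma sum came to 1.47 CPM or more. Igkv6-15, Igkv6-23, Igkv3-1 and Igkv8-24 passed only with the help of their plasma UMIs. Igkv18-36, with 59 UMIs in B and 0 in plasma barcodes, was not tested. The number of V genes higher is thus partly set by the filter and does not describe the V genes as a whole.

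**Figure D5:**
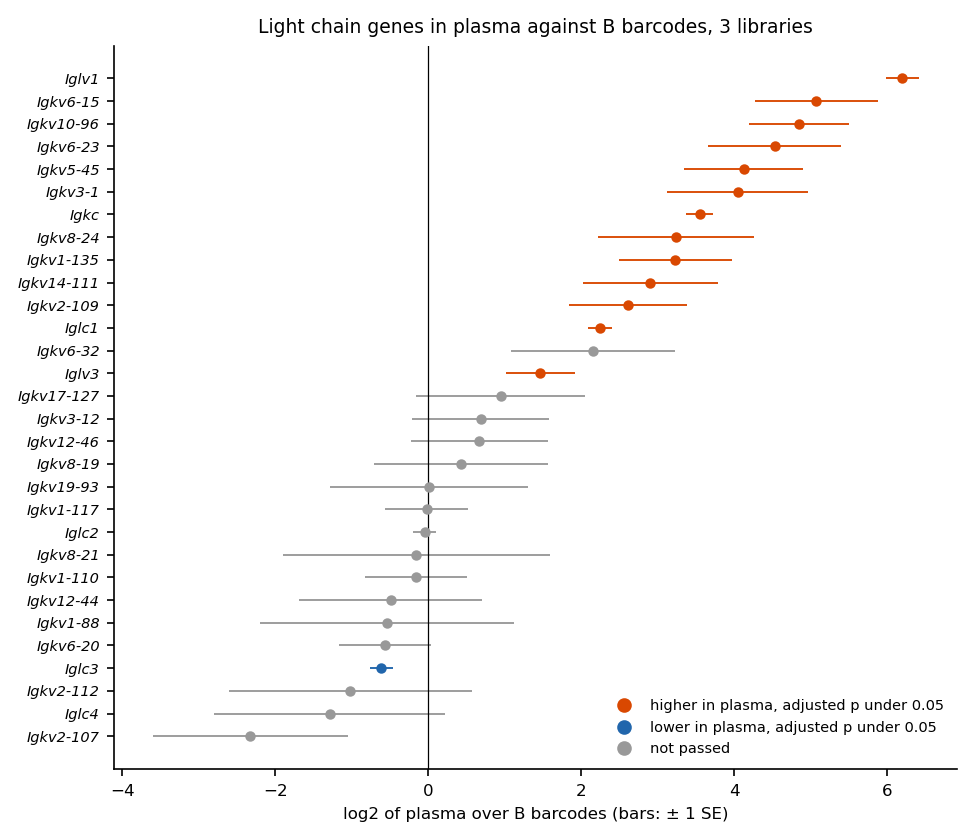
Log2 ratio of plasma over B barcodes (± 1 SE, 3 libraries) for 30 of the 31 light chain genes tested, coloured by call at adjusted p under 0.05 in edgeR. Iglv1 is highest at 6.20, Igkc at 3.55 and Iglc3 the only gene called lower at -0.61 (Igkv17-121, at -7.30 with an SE of 4.78, is left out).

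Iglv1 had the largest ratio of the light chain genes, at a log2 of 6.20 ± 0.22 (SE, edgeR adjusted p = 1.52e-19). Igkc rose by a log2 of 3.55 ± 0.18 (adjusted p = 6.88e-16) and Iglc1 by 2.25 ± 0.16 (adjusted p = 7.78e-13). Iglc2 had a log2 ratio of -0.05 ± 0.15 (adjusted p = 0.857). Iglc3 fell, at -0.61 ± 0.15 (adjusted p = 0.00187). All 3 libraries showed the direction of Iglv1, Igkc, Iglc1 and Iglc3. Iglc3 lost its call without LysoPS-OVA (edgeR adjusted p = 0.141), and among plasma barcodes with under 5 Ms4a1 UMIs it stood at -0.15 and Iglc2 at 0.89. Iglv3 rose by 1.47 ± 0.45 (adjusted p = 0.0116), not called without free OVA (adjusted p = 0.545).

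The other 9 genes called higher were Igkv genes. Igkv10-96 had a log2 ratio of 4.85 ± 0.66 (edgeR adjusted p = 6.18e-07), Igkv6-15 of 5.07 ± 0.80 (adjusted p = 7.35e-06) and Igkv5-45 of 4.12 ± 0.78 (adjusted p = 9.78e-05). Igkv6-23, Igkv3-1, Igkv1-135, Igkv2-109, Igkv14-111 and Igkv8-24 had ratios of 2.61 to 4.53. Single barcodes weighed heavily in these sums. In LysoPS-OVA 1 barcode held 48 of the 51 Igkv10-96 UMIs. In free OVA 1 barcode held all 74 Igkv6-15 UMIs and another held 36 of the 37 Igkv3-1 UMIs. As shares of summed V UMIs, no Igkv gene was called. Igkv8-24 and Igkv2-109 were higher in 1 of 3 libraries only, each from free OVA. Without the free OVA library 8 of the 14 calls were lost, 7 of them V genes of kappa, and without LysoPS-OVA 2 were lost. DESeq2 did not call Igkv5-45, Igkv2-109 and Igkv8-24. Igkv6-15, Igkv3-1 and Iglv3 were not called among barcodes of 10% or more ribosomal UMIs, so 10 light chain genes were higher in either setting. Igkv6-20 had a ratio of -0.56 ± 0.60, Igkv1-117 of -0.02 ± 0.54 and Igkv1-110 of -0.16 ± 0.67, none called.

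As a share of assigned barcodes, with each barcode counted once, 4 V genes could be tested. Of these, 25% were higher and 50% lower in plasma barcodes. Iglv1 was higher, with 2, 3 and 2 plasma and 1, 2 and 7 B barcodes, at a log2 of 2.78 ± 0.98 (edgeR adjusted p = 0.0427). It was seen in 95, 76 and 111 B barcodes, of which only those 1, 2 and 7 held the 2 UMIs asked for. Plasma barcodes were deeper, and the part of the 2-UMI rule in this difference was not tested. Igkv6-20 was lower, with 1, 0 and 0 plasma and 136, 55 and 36 B barcodes, at -4.63 ± 1.49 (adjusted p = 0.0427). Igkv1-117 was lower, with 0, 1 and 1 plasma and 65, 68 and 60 B barcodes, at -3.35 ± 1.29 (adjusted p = 0.0427). Igkv1-110 did not pass, at -2.80 ± 1.35 (adjusted p = 0.0723). These calls were also lost with all deposited barcodes, without barcodes of 2 or more Cd3 UMIs and without TMM scaling. At a minimum of 1 UMI, 20 V genes could be tested and 0 were called. These 3 calls were lost without any 1 of the libraries, when 3 V genes could be tested and 0 were called by edgeR (0 at an unadjusted p under 0.05). By summed V UMIs, Iglv1 alone of 27 V genes was called, at 4.33 ± 0.39 (adjusted p = 2.85e-14).

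Genes of light chain assembly, editing and folding were read in the same fit. Of the 38 genes listed, 32 were tested, 18 were higher and 6 lower in plasma barcodes, with a median log2 ratio of 0.91, against -0.22 over all genes. Over all genes tested 14.9% were higher and 17.2% lower, so the 6 lower of 32 are near the share over all genes. The higher ones were mostly chaperones and enzymes of the endoplasmic reticulum, where light and heavy chains fold. Derl3, of the export of misfolded proteins, was higher by 5.52 ± 0.31 (edgeR adjusted p = 6.96e-15), the chaperone Hsp90b1 by 3.05 ± 0.16 (adjusted p = 2.69e-15) and the chaperone partner Sdf2l1 by 3.37 ± 0.18 (adjusted p = 3.86e-15). The lower ones with the smallest p were transcription factors: Nfkb1 at -1.54 ± 0.17, Ikzf3 at -1.13 ± 0.15, Tcf12 at -1.06 ± 0.15 and Ebf1 at -0.90 ± 0.13. Irf4, which acts at the light chain enhancers and in plasma cell formation, was higher by 1.53 ± 0.18. The recombinase genes Rag1 and Rag2 were among the 6 genes below the filter.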

How the data were processed

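The deposited values are raw UMI counts for each gene in each barcode. The submitters' processing notes name Cell Ranger 7.2.0 and mm10. Which annotation was used, and whether introns were counted, is not given in the sources used here. Library totals were 84089686, 81559237 and 96616683 UMIs (LysoPS-OVA, free OVA, citrate buffer). A barcode was kept with 300 or more genes and no more than 10% mitochondrial UMIs. No doublet caller was run. All 168 genes matched GENCODE M21 (GRCm38) by identifier. Shares have exact Clopper-Pearson intervals, levels exact Poisson and ratios conditional binomial ones, at 95%. A count of 0 was read as at most 3. Sums per library and class were tested with edgeR 4.0.16, with TMM, filterByExpr and Benjamini-Hochberg adjustment. Plasma and B barcodes of 1 library are paired by design, so library was a term. The libraries are the replicates of that contrast, not of a feeding. The test was also run on simulated sums with the same spread for every gene. These held no sums supplied by a single barcode, and V usage by the 2-UMI rule was not simulated, so they do not bear on either. Named genes are the constant genes, the Iglv genes, the 6 V genes leading each class, those at the extremes of each comparison and the 4 list genes of smallest p in each direction. Others were named after their values were seen, and 1 list gene is not reported here. Members and lists were chosen with earlier results of these data known. DESeq2 1.42.0 was the alternative test. Software was R 4.3.3 and Python 3.11.15 with scipy 1.17.1, numpy 2.4.6, matplotlib 3.10.9 and pandas 2.3.3.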

Additional observations from a re-analysis of the deposited data

Results flagged for a closer look

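Some contrasts of feedings ran in opposite directions in plasma and in B barcodes, with both counting intervals off 1. For LysoPS-OVA over free OVA, Igkc had a ratio of 0.461 in plasma barcodes and of 1.13 in B barcodes. The summed Iglc genes had 0.700 and 1.10, Iglc2 0.633 and 1.13, and Iglc3 0.724 and 1.09. For free OVA over citrate buffer, Iglv1 had a ratio of 1.34 in plasma barcodes and of 0.710 in B barcodes. These differences between the classes were not tested, as each feeding has 1 library. The 3 highest plasma barcodes held 75.4% of the Igkc UMIs in LysoPS-OVA and 44.8% in free OVA.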

How the results depend on the processing

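Of 221 alternative values of the main results, 156 were labelled the same and 65 moved. A share was the same within its main interval, and a count or effective number within a set fold of its main value. Main values of 0 in plasma barcodes, for lambda calls and for V genes compared by barcodes, had little room to move. The tally is therefore no measure of how firm the results are. The lambda share of called B barcodes (2.93%, 3.94% and 8.36% in LysoPS-OVA, free OVA and citrate buffer) became 3.71%, 5.32% and 10.7% at 60% of one class, 16.4%, 11.7% and 15.6% at 95%, 26.5%, 26.9% and 32.5% of summed UMIs, and 5.996%, 8.37% and 15.5% by the larger class, which was added after seeing the data. With at least 10 constant UMIs it was 2.91% in free OVA and 6.59% in citrate buffer, and thinned to one depth it was 3.76% in LysoPS-OVA. Citrate buffer stayed highest except at 95%. Light chain genes higher in plasma barcodes numbered 10 with DESeq2, 10 at a ribosomal share of 10% or more, 24 without a filter on low counts and 7 to 16 with 1 library left out, and those lower 0 to 2. With plasma barcodes of under 5 Ms4a1 UMIs, also added later, 0 light chain genes and 10 list genes were lower. Iglc2 changed sign to 0.0175 with DESeq2 and 0.89 with under 5 Ms4a1 UMIs (edgeR adjusted p = 1.73e-05), and ran between -0.29 and 0.21 (without LysoPS-OVA) with 1 library left out.

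V gene usage in plasma against B barcodes was the least stable: edgeR called 0 higher and 0 lower with all barcodes (2 at an unadjusted p under 0.05), without Cd3 barcodes (0), without TMM (1), with any library left out (0), at a minimum of 1 UMI (6) and at 90% of V UMIs (0). Without the filter 0 were higher and 6 lower, with under 5 Ms4a1 UMIs 0 were higher, and by summed V UMIs 0 were lower. It could not be fitted with DESeq2 or at 4 UMIs. The replicate block is the library term; without it the members gave 13 higher and 1 lower, V usage 1 and 3, and the list 19 and 6.

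Between feedings, V genes past 2-fold in plasma barcodes numbered 7, 10 and 11 by summed V UMIs (LysoPS-OVA against citrate buffer, free OVA against citrate buffer, LysoPS-OVA against free OVA). In B barcodes they numbered 3, 1 and 2 at a minimum of 1 UMI, 5, 1 and 2 by summed V UMIs, and 2 for LysoPS-OVA against free OVA at 4 UMIs. The effective number of V genes in B barcodes was 19.7, 24.6 and 23.7 at 1 UMI, 3.29, 4.53 and 3.94 at 4 UMIs and 14.8, 20.96 and 20.4 by summed V UMIs. In plasma barcodes it was 3.996, 7.37 and 5.58 by summed V UMIs, and in LysoPS-OVA 18.2 at 1 UMI and 15.0 at a ribosomal share of 10% or more (added later). The cause of these changes was not tested. V genes drew 1.16%, 1.08% and 1.14% of light chain UMIs, which limits every V result, and a feeding has 1 library.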
